A study of Mus musculus with 8 samples.

Results

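Mitosis and spindle genes were followed in RNA-seq of mouse corneas with dry eye, 40 of the 23597 genes in the deposited table. They were chosen by symbol for their known roles, and all 40 symbols were found. In both groups dry eye was produced by injecting scopolamine, which blocks muscarinic receptors, and corneas were taken at day 14. The 4 samples named ICI also had ICI 118551, and the 4 named Scop did not. ICI 118551 is a compound that blocks β2-adrenergic receptors. Every sample pooled 4 corneas. Strain, sex, age and the origin of each pool are missing from the labels, so p-values reflect the spread among these 8 pools and no more. No cornea without dry eye was among them. Values are FPKM (fragments scaled by the length of the gene and by the depth of the library). Totals of the fragments recovered from ratios of FPKM between libraries lay between 34354093 (Scop replicate 3) and 39885523 (Scop replicate 1).

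A cell enters mitosis when cyclin B activates the kinase CDK1. Kinesins and microtubule-binding proteins then build the spindle, kinetochores attach chromosomes to it, and a checkpoint restrains the anaphase-promoting complex (APC/C) until every chromosome is attached. The APC/C ends mitosis by marking securin and the cyclins for destruction, and a contractile ring divides the cell. In the cornea, divisions take place mainly among basal and limbal epithelial cells, and the cells above them differentiate without dividing. Transcripts of these genes rise together in late S phase and G2, when repression by the DREAM complex gives way to activation by B-MYB and FOXM1. Promoters of such genes typically carry CCAAT boxes, bound by NF-Y, and a cell cycle homology region (CHR), bound by the MuvB core of DREAM.

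These promoter elements were looked for first, because the choice of members did not use them. RefSeq promoter windows of the GRCm38.p6 build (mm10), 300 bases long from 250 before the transcript start, were at hand for 34 of the 40 members. For 28 of the 34 the window's start lay within 50 bases of the outer end of the RefSeq gene, and for the other 6 it lay 71 (Mki67) to 3852 bases (Kif2c) inside, with Pttg1 at 1482. Kif2c is among the members counted with a CHR, and Pttg1 held neither motif. Both strands were searched, overlapping matches were allowed, and a gene with several windows counted as holding a motif if any window did. CCAAT was found for 26 members (76.5%), against 42.8% of the 9606 tested genes with a window. The CHR, searched as TTTGAA or TTCGAA, was found for 27 members (79.4%), against 16.4%. Both were present for 24 members (70.6%), against 6.92%. An E2F site (TTTGGCGC, TTTCCCGC, TTTCGCGC or TTTGCCGC) was found for 1 member, Cdk1 (2.94%), against 4.74%. Further mitosis genes, a list set beside the members, held CCAAT in 64.4%, a CHR in 62.7%, both in 42.4% and an E2F site in 16.9% of 59 with a window. Genes of S phase held CCAAT in 60.6%, a CHR in 18.2%, both in 15.2% and an E2F site in 39.4% of 33. A match describes letters and not binding.

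In 25 members (73.5%) a CHR began within 50 bases of the annotated start, against 4.43% of tested genes, and 19 (55.9%) held at least 2 CCAAT boxes, against 16.6%. These last counts were added after the matches had been seen. The stretches below show such a CHR, with at least 1 CCAAT box, in 6 members described further on. Each runs 5′ to 3′ from 150 bases before the start to the base before the start or, where the nearest CHR lies beyond it, to the end of that CHR. Capitals mark CCAAT and CHR matches on either strand, so that a box on the other strand reads ATTGG.
Top2a (chr11:99024190-99024339, minus strand): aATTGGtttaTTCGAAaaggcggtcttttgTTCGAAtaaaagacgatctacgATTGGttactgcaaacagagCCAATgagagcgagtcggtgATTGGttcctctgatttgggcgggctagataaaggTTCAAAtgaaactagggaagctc
Spc25 (chr2:69206184-69206363, minus strand): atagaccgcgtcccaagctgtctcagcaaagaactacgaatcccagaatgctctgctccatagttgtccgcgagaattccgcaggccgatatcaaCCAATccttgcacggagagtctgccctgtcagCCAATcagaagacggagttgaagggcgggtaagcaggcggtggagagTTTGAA
Bub1 (chr2:127831840-127832009, minus strand): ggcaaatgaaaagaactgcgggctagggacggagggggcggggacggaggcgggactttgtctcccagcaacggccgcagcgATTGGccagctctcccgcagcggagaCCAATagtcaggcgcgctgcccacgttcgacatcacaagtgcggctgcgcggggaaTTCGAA
Cdca8 (chr4:124936899-124937067, minus strand): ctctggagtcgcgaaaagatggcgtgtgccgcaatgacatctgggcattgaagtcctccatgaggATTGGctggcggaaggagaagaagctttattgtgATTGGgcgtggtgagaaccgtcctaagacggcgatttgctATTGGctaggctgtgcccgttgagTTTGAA
Racgap1 (chr15:99651646-99651806, minus strand): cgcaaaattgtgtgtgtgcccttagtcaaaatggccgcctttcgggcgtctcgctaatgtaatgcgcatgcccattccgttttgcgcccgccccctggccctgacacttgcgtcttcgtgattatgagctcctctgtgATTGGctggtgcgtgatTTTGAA
Kif11 (chr19:37376232-37376381, plus strand): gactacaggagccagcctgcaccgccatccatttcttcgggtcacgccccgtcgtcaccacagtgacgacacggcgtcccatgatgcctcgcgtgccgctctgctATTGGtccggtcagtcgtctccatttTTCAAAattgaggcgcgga
Top2a held 4 CCAAT boxes and 3 CHR matches in this stretch, 1 of them 23 bases before the start. Bub1 and Spc25 paired 2 CCAAT boxes with a CHR just past the start, and Cdca8 had 3 CCAAT boxes. Racgap1 and Kif11 had a single match of each kind.

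**Figure D1:**
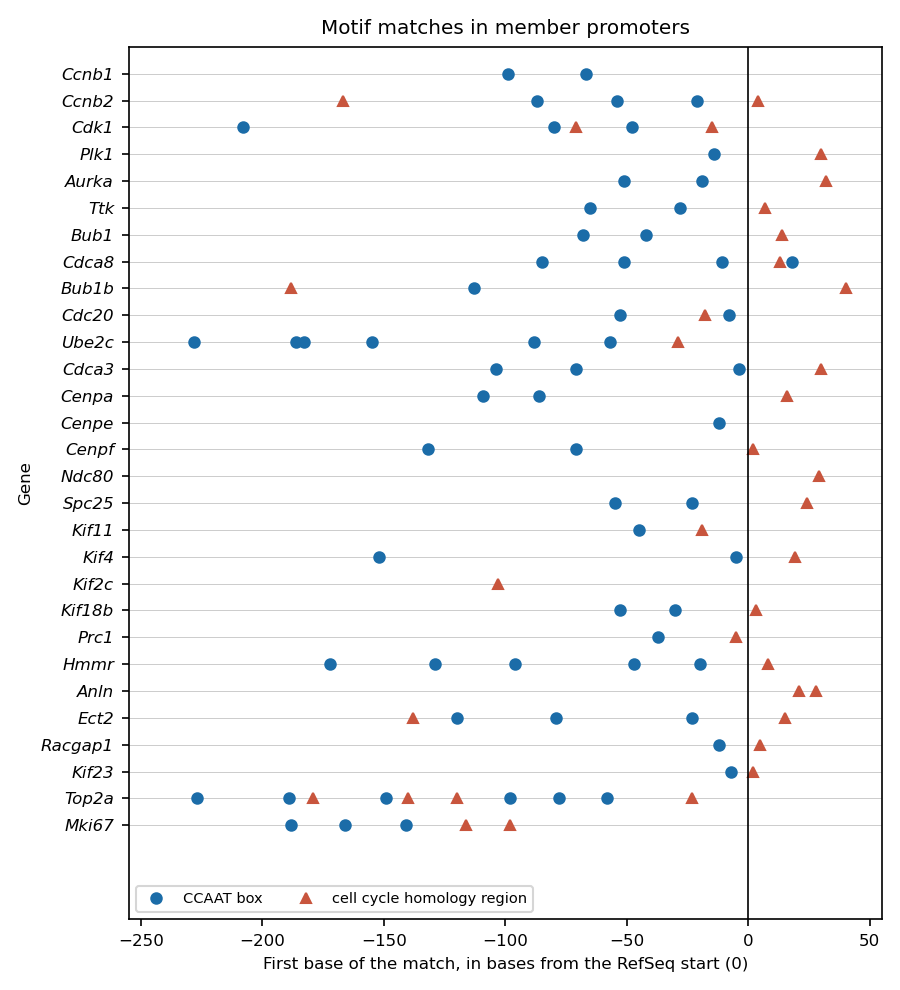
Matches of CCAAT (circles) and of the cell cycle homology region (triangles) in the promoter windows of the 29 members with a match of either kind, placed by the distance of their first base from the RefSeq start in bases (1 window a gene). CCAAT boxes lie mostly upstream and CHR matches gather around the start, where 25 members have one within 50 bases.

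Across the 8 libraries the members ranged from 0.456 FPKM for Cenpe, a kinetochore motor, to 26.6 for Ube2c, the ubiquitin-conjugating enzyme of the APC/C. Cenpe was the single member under the mean of 0.5 FPKM required for testing, so 39 were tested. Most members rose and sank together from library to library, in an order that cut across the groups. ICI replicate 2 was the lowest of the 8 libraries for 31 of the 40 members, where it was lowest for 18.2% of all 12100 genes tested. Scop replicate 3 was the highest for 31 of 40, where it was highest for 15.0% of all genes. The mean log2(FPKM + 1) of the 39 tested members, called their score below, was 2.75, 2.36, 2.95 and 2.70 in ICI replicates 1 to 4 and 2.64, 2.83, 3.11 and 2.81 in Scop replicates 1 to 4. ICI replicate 3 thus stood above 3 of the Scop libraries, and Scop replicate 1 stood below 3 of the ICI libraries.

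The median coefficient of variation of a tested member was 22.6% among the ICI libraries and 18.7% among the Scop libraries, where counting of fragments alone would give 3.86% and 3.70%. Separate pools of corneas differ by more than counting error in any case, so these values only describe the precision that depth gives. On the log2 scale the members' median SD was 0.27 within ICI and 0.21 within Scop, against 0.10 and 0.11 for all genes tested. In a bulk sample, fewer dividing cells and less RNA per dividing cell cannot be told apart.

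**Figure D2:**
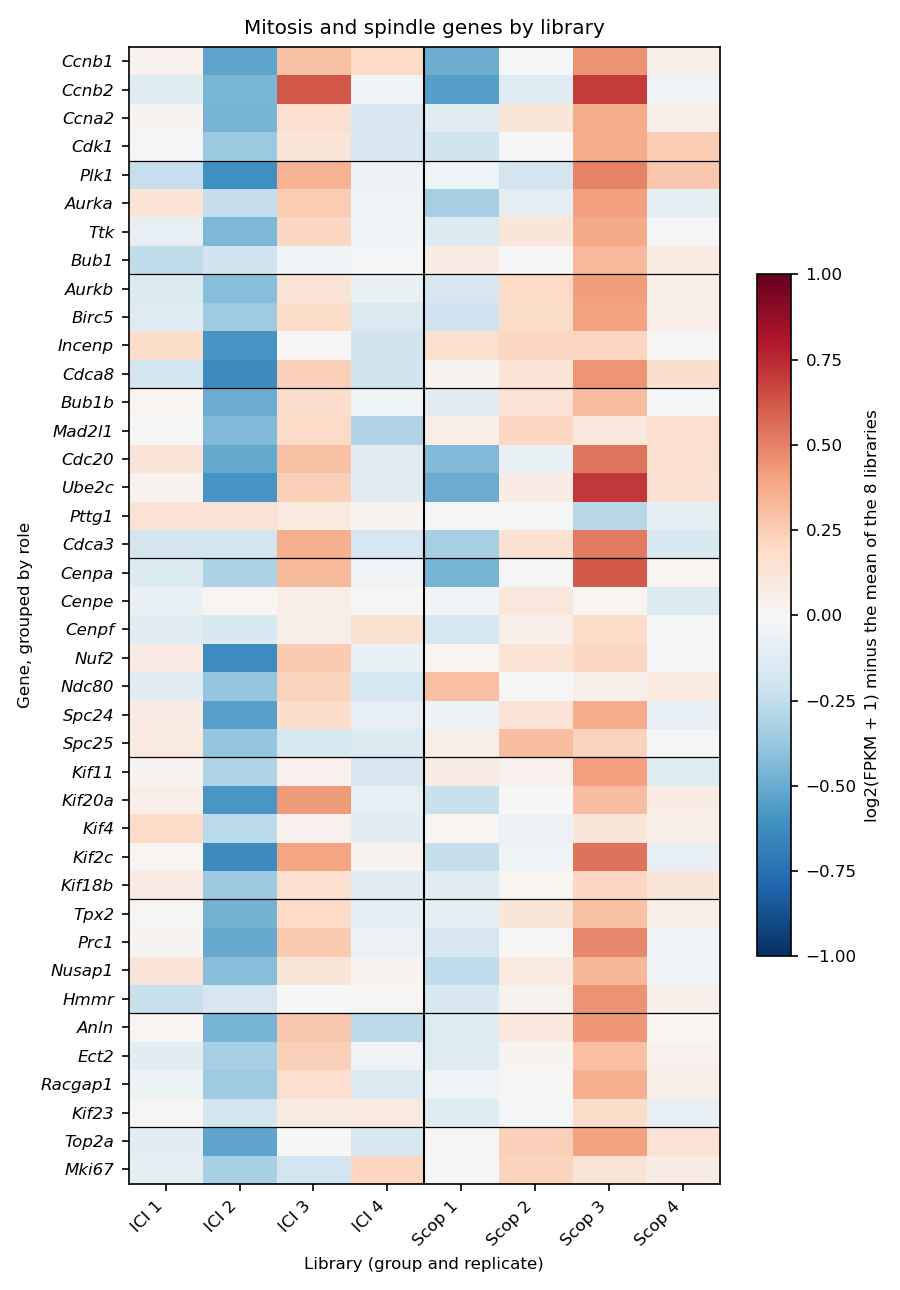
Each row is a member and each column a library, coloured by log2(FPKM + 1) minus the gene's mean over the 8 libraries, with lines between role groups (cyclins at the top, chromosome structure at the bottom). The column of ICI replicate 2 is low and that of Scop replicate 3 is high in most rows, and the row of Pttg1 runs the other way.

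Scop replicate 3 also stood apart in its tissue markers. The summed FPKM of 8 keratocyte genes was 644.6 there, against 1624 to 2212 in the ICI libraries and up to 1937 in Scop, and 6 of the 7 tested had higher values in ICI. The sum of 6 genes of wound and stressed epithelium was highest there, at 3806 against 2430 to 2671 in ICI and a lowest of 2339 in Scop. It came mostly from Krt6a and Krt6b. Of the 6 genes, 5 had lower values in ICI (median log2 fold change -0.64). At an unadjusted p under 0.05 by limma 3 were lower, against 7.46% of all genes, and 0 passed the adjusted test. Krt16 was at 77.1 FPKM in Scop replicate 3, 46.7 in Scop replicate 4 and 4.73 in Scop replicate 1, and at 4.37 to 14.4 in ICI. The conjunctiva and goblet cell markers summed to 1864 in Scop replicate 3, against 1117 to 1288 in the other 7 libraries. All 4 tested had lower values in ICI (median -0.33), 2 of them at an unadjusted p under 0.05 by limma (7.46% of all genes). Most of the sum was Krt13, whose log2 fold change was -0.08 (SE 0.13). Of the goblet cell markers, Spdef did not exceed 0.0508 FPKM and Muc5ac was missing from the genes at hand. ICI replicate 1 had the highest sum of corneal endothelial markers, 275 against 182 to 225 in the other libraries. The 6 basal epithelial markers summed to 7824 to 8444 in ICI and 7989 to 9165 in Scop, mostly from Krt5. All 6 had lower values in ICI, 1 of them at an unadjusted p under 0.05 by limma (7.46% of all genes). Of the 5 limbal markers 3 had lower and 2 higher values in ICI (median log2 fold change -0.02). No keratocyte, stress or basal marker was at 0 in every library, and Krt12, the keratin of differentiated corneal epithelium, lay between 15153 and 18414 in all of them. Of the leukocyte markers, Ly6g and Cd79a were at 0 in all 8 libraries, and Ptprc did not exceed 0.255 FPKM, although the whole list summed to 42.7 to 48.2 in ICI and 36.7 to 53.3 in Scop, mostly from Itgam and Lyz2. The part of tissue makeup in the members' values was not tested.

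Setting ICI against Scop asks what β2-adrenergic blockade does to these transcripts once scopolamine has been given. By limma on log2(FPKM + 1), 0 of the 39 tested members passed an adjusted p under 0.05, as did 0.0% of all genes. Of the 39, 34 had negative values (lower in ICI) and 5 positive, where 55.4% of all tested genes were negative. Their median log2 fold change was -0.18, against -0.02 over all genes. At an unadjusted p under 0.05, 5 members were lower (7.46% of all genes) and 1 higher (4.56%), together 6 against 12.0% of all genes. Limma-voom on recovered fragments gave 7, and its share of all genes was not worked out. Without ICI replicate 2 the negative members numbered 25 and the median was -0.05, and without Scop replicate 3 they numbered 26 with a median of -0.09. Without both, a setting chosen after the data had been seen and which removes the extreme library of each group, 15 of 39 were negative and the median was 0.03.

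**Figure D3:**
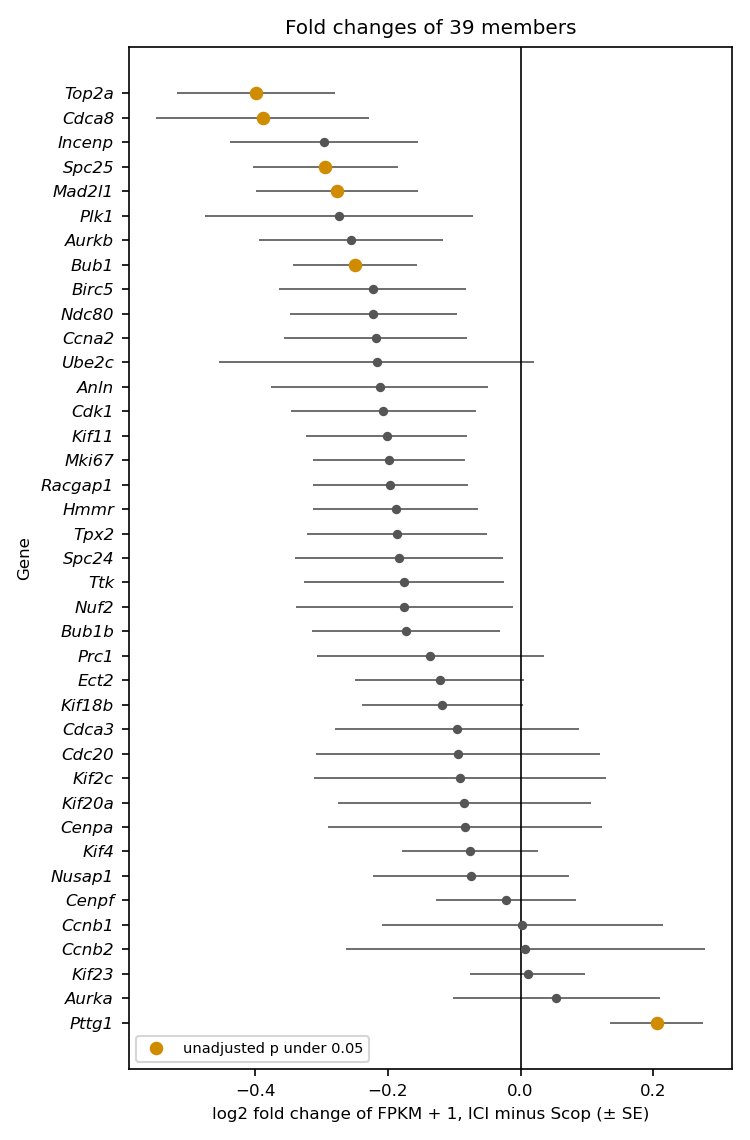
Log2 fold change of FPKM + 1, ICI minus Scop, for the 39 tested members, with limma's standard error as bars and larger orange points where the unadjusted p was under 0.05. Values run from -0.40 (Top2a) to 0.20 (Pttg1), 34 lie left of 0, and 0 passed the adjusted test.

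Of the 3 mitotic cyclins and Cdk1, 0 passed the adjusted test, and the groups overlapped for all 3 cyclins. Ccna2 encodes the cyclin that bridges S phase and mitotic entry (chromosome 3, 36564865 to 36573038). It was at 15.9, 11, 17.5 and 13.8 FPKM in ICI and 14.2, 17.0, 20.4 and 16.3 in Scop, with a log2 fold change of -0.22 (SE 0.14, limma's adjusted p = 0.559). ICI replicate 2 was lowest and Scop replicate 3 highest, and the groups overlapped. Ccnb1, the cyclin that triggers mitosis, was at 9.97, 6.38, 12.0 and 11.3 FPKM in ICI and 6.58, 9.52, 13.5 and 10.1 in Scop. Its group means were close, 9.91 ± 2.5 and 9.93 ± 2.85 FPKM (SD, n = 4 in each group), while libraries of 1 group differed by more than the means did. Ccnb2, the second B-type cyclin, ran from 5.98 in Scop replicate 1 to 15.6 in Scop replicate 3, 2.61-fold within the Scop group. Cdk1, the kinase itself, was at 5.34 ± 0.918 against 6.34 ± 1.28 FPKM.

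Bub1, a kinase that protects centromeric cohesion and serves the checkpoint (chromosome 2, 127800197 to 127831859), was 1 of 2 members whose ICI values all lay below all Scop values, an arrangement found in 4.36% of all genes tested. It was at 1.66, 1.76, 2.12 and 2.13 FPKM in ICI and 2.35, 2.19, 2.98 and 2.38 in Scop. The gap between the groups was narrow, from 2.13 to 2.19 FPKM, and rested on 284 to 448 fragments a library. The log2 fold change of -0.25 (SE 0.09) had an adjusted p of 0.341 by limma. Plk1, a kinase of mitotic entry and spindle poles (chromosome 7, 122159435 to 122169884), was at 3.68, 2.58, 5.99 and 4.28 FPKM in ICI and 4.33, 3.83, 6.74 and 5.62 in Scop. Its ICI replicate 3 was above 3 of the Scop libraries, and the difference (-0.27, SE 0.20) was not far above its error. Aurka, the kinase of spindle poles, and Ttk, the kinase that starts the checkpoint, had 0.05 (SE 0.16) and -0.18 (SE 0.15).

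All 4 genes of the chromosomal passenger complex, which corrects faulty attachments at the centromere, had negative values, and 0 passed the adjusted test. Cdca8, which encodes borealin (chromosome 4, 124918465 to 124936917), was at 10.3, 7.25, 14.1 and 10.1 FPKM in ICI and 12.1, 13.0, 16.4 and 13.4 in Scop. Among the ICI libraries replicate 3 alone reached into the Scop range. The log2 fold change was -0.39 (SE 0.16, limma's adjusted p = 0.378), and -0.24 without ICI replicate 2. Aurkb, the kinase of the complex, Birc5, which encodes survivin, and the scaffold gene Incenp had -0.26, -0.22 and -0.30. Exons of Cdca8 overlap those of a gene on the opposite strand, as do those of Ccna2, Plk1, Ube2c, Prc1, Kif20a and 3 other members. Those of Top2a overlap a small nucleolar RNA gene on the same strand. Whether counting used strand is not stated in the sources at hand.

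In the group of checkpoint and APC/C genes, Pttg1 ran against all the others. It encodes securin, which holds the protease separase inactive until anaphase (chromosome 11, 43420244 to 43427463). It was at 11.8, 11.8, 11.4 and 10.8 FPKM in ICI and 10.5, 10.4, 8.56 and 9.82 in Scop. Every ICI library lay above every Scop library, an arrangement found in 2.63% of all genes tested, and Scop replicate 3, the highest library for most members, was the lowest for Pttg1. Its coefficient of variation was 4.08% within ICI and 9.13% within Scop, below the members' medians. The log2 fold change of 0.20 (SE 0.07) was the highest of the 39 and had an adjusted p of 0.307 by limma. It ranged from 0.13 to 0.24 over the alternatives, with adjusted p from 0.221 to 0.557.

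Ube2c (chromosome 2, 164769929 to 164772902) was the most abundant member. It was at 26.2, 16.7, 30.3 and 23.6 FPKM in ICI and 17.9, 27.0, 42.5 and 28.6 in Scop, so the Scop libraries alone spanned more than the ICI group did, and its log2 fold change was -0.22 (SE 0.24). Mad2l1, the checkpoint protein that captures CDC20, was at 9.13 ± 2.0 against 11.1 ± 0.520 FPKM (-0.28, SE 0.12, limma's adjusted p = 0.404). Bub1b, its partner in the checkpoint, and Cdc20, the activator that both restrain, had -0.17 (SE 0.14) and -0.09 (SE 0.21). Cdca3, a promoter of mitotic entry, was at 7.43, 7.41, 11.2 and 7.51 FPKM in ICI, where replicate 3 stood alone, and at 6.62, 9.64, 12.7 and 7.63 in Scop.

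**Figure D4:**
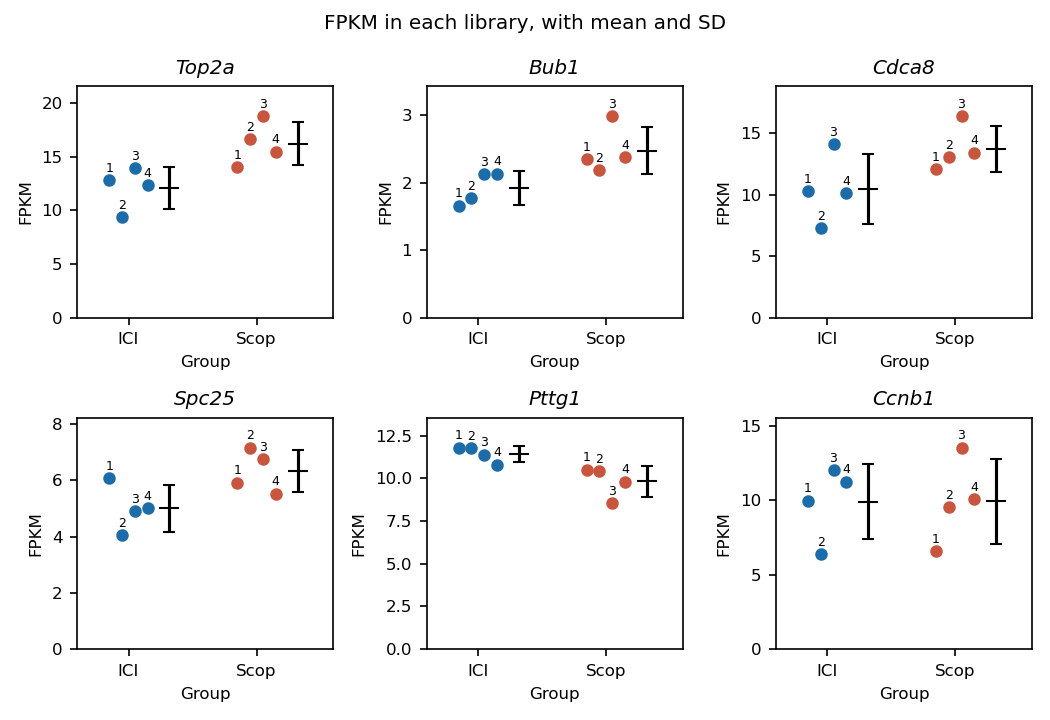
FPKM of 6 members in each library (points, labelled with the replicate number), with the group mean and SD beside them (n = 4 in each group). Top2a and Bub1 do not overlap between the groups and are lower in ICI, Pttg1 does not overlap and is higher, Cdca8 and Spc25 overlap, and Ccnb1 spreads over the same range in both.

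Of the 7 kinetochore genes 6 were tested and all 6 had negative values, with 0 past the adjusted test. Spc25 and Spc24 encode the inner subunits of the NDC80 complex, which grips microtubule ends. Spc25 (chromosome 2, 69193895 to 69206213) was at 6.07, 4.04, 4.91 and 5.0 FPKM in ICI and 5.92, 7.16, 6.75 and 5.53 in Scop, where ICI replicate 1 alone reached the Scop range (-0.29, SE 0.11, limma's adjusted p = 0.340). Spc24 (chromosome 9, 21755434 to 21760446) was at 7.32, 4.37, 7.85 and 6.43 FPKM in ICI and 6.56, 7.62, 9.15 and 6.40 in Scop, and overlapped more widely (-0.18, SE 0.16). The outer subunits of the same complex, Ndc80 and Nuf2, had -0.22 (SE 0.13) and -0.18 (SE 0.16). Cenpa, the histone that marks the centromere, was at 6.26 ± 1.42 against 6.86 ± 2.47 FPKM, and Scop replicate 3 reached 10.3. Cenpf, a large protein of the outer kinetochore, and Cenpe were low, at 0.661 ± 0.167 against 0.687 ± 0.179 and 0.462 ± 0.0564 against 0.449 ± 0.105 FPKM.

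The 5 genes of the kinesin group, in which Kif23 was not placed, also had negative values throughout, and they were small, between -0.20 and -0.08. Kif11, the motor that pushes spindle poles apart (chromosome 19, 37376382 to 37421863), was at 3.96, 2.96, 4.03 and 3.34 FPKM in ICI and 4.14, 4.03, 5.47 and 3.47 in Scop (-0.20, SE 0.12). Kif20a, a motor of the central spindle, was at 4.20, 2.31, 5.64 and 3.68 FPKM in ICI and 3.25, 3.97, 5.13 and 4.20 in Scop. Its highest and lowest libraries were both ICI, and its value of -0.08 (SE 0.19) came to 0.10 when ICI replicate 2 was left out and to 0.00 when Scop replicate 3 was. Kif2c, which depolymerises microtubules at centromeres, had the widest range of all members, 3.10-fold between ICI replicate 2 and Scop replicate 3. Kif4, a chromokinesin, and Kif18b, a motor of astral microtubules, were at 1.65 ± 0.359 against 1.77 ± 0.144 and 1.89 ± 0.450 against 2.11 ± 0.290 FPKM.

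Of the 8 genes of spindle assembly and cytokinesis 7 had negative values, and 0 passed the adjusted test. Prc1, which bundles microtubules of the central spindle (chromosome 7, 80294445 to 80316259), was at 11.6, 7.76, 13.9 and 10.9 FPKM in ICI and 10, 11.4, 16.3 and 11.1 in Scop (-0.14, SE 0.17), and leaving out ICI replicate 2 gave 0.01 and leaving out Scop replicate 3 gave 0.00. Hmmr, a spindle-pole protein gene (chromosome 11, 40701388 to 40733464), was at 1.52, 1.61, 1.95 and 1.96 FPKM in ICI and 1.65, 2.01, 3.01 and 2.04 in Scop, with Scop replicate 3 above all others (-0.19, SE 0.12). Tpx2, which activates Aurora A on the spindle, and Nusap1, which bundles spindle microtubules, had -0.19 (SE 0.14) and -0.07 (SE 0.15). Racgap1, a subunit of centralspindlin, which positions the division furrow (chromosome 15, 99620496 to 99651656), was at 21.3, 17.1, 25.0 and 19.9 FPKM in ICI and 21.5, 22.4, 28.9 and 23.1 in Scop. Its groups overlapped through ICI replicate 3 (-0.20, SE 0.12, limma's adjusted p = 0.536). Kif23, the motor subunit of centralspindlin, varied least of all members across the 8 libraries, 1.32-fold, and had 0.01 (SE 0.09). Anln, the scaffold of the contractile ring, and Ect2, the exchange factor that activates RhoA there, had -0.21 (SE 0.16) and -0.12 (SE 0.13).

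Top2a, the topoisomerase that untangles sister chromatids (chromosome 11, 98992947 to 99024199), had the smallest p of the members. It was at 12.8, 9.34, 13.9 and 12.4 FPKM in ICI and 14, 16.7, 18.8 and 15.5 in Scop. Every ICI library lay below every Scop library, though ICI replicate 3 and Scop replicate 1 nearly touched, at 13.9 and 14. The log2 fold change of -0.40 (SE 0.12) had an adjusted p of 0.273 by limma. It ranged from -0.47 to -0.22 over all alternatives, with adjusted p from 0.227 to 0.488, and its unadjusted p was under 0.05 in each of the 21 settings. Mki67, the proliferation marker that coats mitotic chromosomes, was at 1.91, 1.5, 1.74 and 2.62 FPKM in ICI and 2.08, 2.63, 2.41 and 2.28 in Scop (-0.20, SE 0.11), and ICI replicate 4 lay within the Scop range.

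Other lists of the cell cycle were set beside the members in the same fit, and 0 of their genes passed the adjusted test. Of 65 tested further mitosis genes 61 had negative values (median -0.14), with 13 lower at an unadjusted p under 0.05 (7.46% of all genes). Those with the smallest p were Cenpu, a centromere subunit gene (1.86 ± 0.273 against 2.57 ± 0.214 FPKM), Cdca5, which encodes the cohesin protector sororin (4.50 ± 1.08 against 6.35 ± 0.493), and Smc2, a condensin subunit gene (2.67 ± 0.208 against 3.40 ± 0.366). The 14 constitutive subunits of the APC/C, present through the whole cycle, had 6 negative and 8 positive values (median 0.02). Anapc11, its catalytic RING subunit, had the smallest p among them, with -0.19 (SE 0.10), and Cdc16 and Anapc16 had -0.14 (SE 0.08) and -0.07 (SE 0.06).

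Of 23 transcription factors and pocket proteins 17 had negative values (median -0.07), and 6 were lower at an unadjusted p under 0.05 (7.46% of all genes). They included E2f4, a repressive E2F of DREAM (20.1 ± 0.900 against 23.7 ± 1.14 FPKM), E2f8, an atypical repressor (3.06 ± 0.700 against 4.36 ± 0.343), and Lin54, the MuvB subunit that binds the CHR (3.63 ± 0.0932 against 4.28 ± 0.187). Of the 6 G1 cyclins and kinases 5 had negative values, with Ccnd3, a D-type cyclin, at 11.2 ± 0.901 against 14.3 ± 1.24 FPKM (-0.32, SE 0.08), and Cdk2 and Cdk6 at -0.16 (SE 0.07) and -0.15 (SE 0.07). Of the 7 tested inhibitors of cyclin-dependent kinases 4 had negative values. Cdkn1a, the p53 target p21, was at 103 ± 3.24 against 116 ± 8.33 FPKM (-0.17, SE 0.06), and Cdkn1b and Cdkn1c had 0.07 (SE 0.06) and 0.10 (SE 0.09).

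Genes of S phase gave a different order of libraries from the mitosis genes. All 41 had negative values (median -0.28), against 55.4% of all genes. At an unadjusted p under 0.05, 25 were lower, against 7.46% of all genes, with 0 past the adjusted test. Rrm2, a subunit of ribonucleotide reductase, was at 27.0 ± 3.29 against 36.1 ± 5.25 FPKM, and Pola1, the catalytic subunit of the primase polymerase, at 3.24 ± 0.553 against 4.89 ± 0.203. The S phase score was 3.49, 3.13, 3.51 and 3.27 in ICI replicates 1 to 4 and 3.71, 3.64, 3.44 and 3.68 in Scop replicates 1 to 4. Scop replicate 3, highest in the mitosis score, was the lowest Scop library in the S phase score, and Scop replicate 1, lowest of the Scop libraries in the mitosis score, was the highest of all 8. The S phase score exceeded the mitosis score by 1.08, 0.81, 0.33 and 0.88 in Scop replicates 1 to 4, and by 0.56 to 0.77 in the ICI libraries. ICI replicate 2 was lowest in both. Without ICI replicate 2 and Scop replicate 3 together, 40 of the 41 S phase genes had negative values (median -0.27), as did 47 of the 65 further mitosis genes (median -0.05) and 60.3% of all genes tested, beside the 15 of 39 members given above. These libraries were left out as the extremes of the members' score, and Scop replicate 3 was the lowest Scop library in the S phase score, so the contrast between the lists is partly built into the choice. The difference between the lists was not tested.

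**Figure D5:**
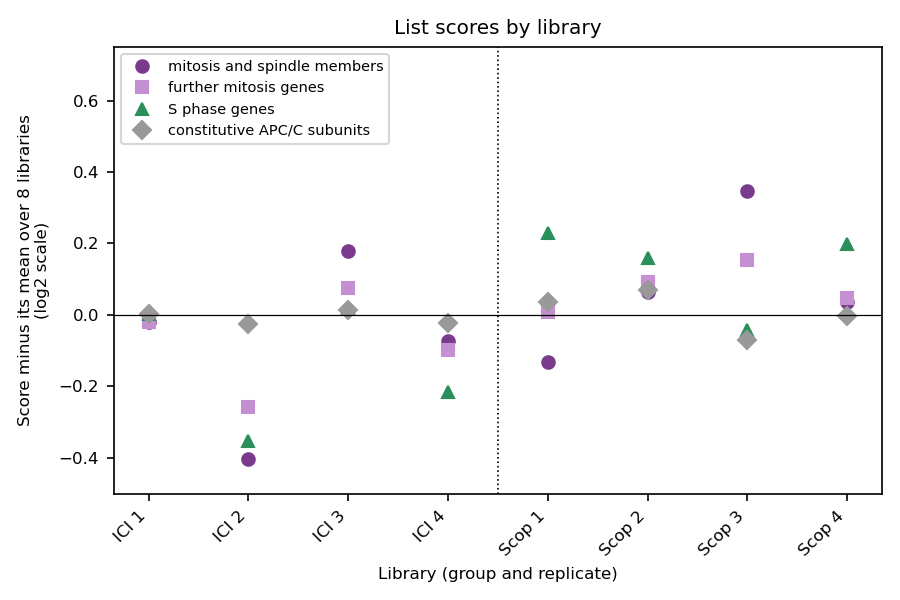
Score of each list (mean log2(FPKM + 1) of its tested genes) in each library, minus the list's mean over the 8 libraries, for the 39 mitosis and spindle members, 65 further mitosis genes, 41 S phase genes and 14 constitutive APC/C subunits. Mitosis genes peak in Scop replicate 3, where S phase genes lie below their own mean, and constitutive subunits stay close to 0.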

How the data were processed

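A Vazyme kit for Illumina sequencing turned total RNA into libraries, per the labels' protocols. The submitters' processing notes name fastp, HISAT2, HTSeq and mm10. Roles and versions of these tools, the gene annotation and strandedness are not given there. The authors deposited 1 table of FPKM per sample, with no scaling between samples stated. Whole fragments were recovered from ratios of FPKM between libraries for 99.7% of genes above 0 in at least 2 libraries (relative tolerance 5e-13, whole within 0.01).

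Log2(FPKM + 1) of 12100 genes, those whose mean reached 0.5 FPKM, was tested with limma 3.58.1 (R 4.3.3, trended eBayes), two-sided, with Benjamini-Hochberg adjustment over all of them and a threshold of 0.05. The fit was also run on simulated data, with a spread between libraries typical of all genes. Members spread more widely, so that run does not show how small a change could be found in them. Fold changes on this scale understate those of low genes. Samples were matched to columns by title. Members and lists were chosen with earlier results of these data known, so lists are described by counts and medians without a test. Members given library by library are, in each role group, those with the smallest p and the highest mean, plus any with an outlying library. From other lists the 3 genes with the smallest p are named, except 1 that is not reported here. Ccnb1, Mki67 and values of further members fall outside the rule and were picked once values were known. Promoters are from RefSeq (GRCm38.p6). The 6 printed are those with the smallest p among members given under the rule whose window held both motifs. Mki67, outside the rule, also held both, with CHR matches beginning at -116 and -98 bases from the start, and was not printed. Alternatives were other pseudocounts, filters, scalings, eBayes settings, a replicate block, limma-voom on recovered fragments and leaving out each library.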

Additional observations from a re-analysis of the deposited data

Results flagged for a closer look

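Cdca3 in ICI replicate 3 was at 11.2 FPKM, where the other ICI libraries lay between 7.41 and 7.51. Its gap to the nearest of them was 97.3% of the group's range, above Dixon's 95% critical value for 4 samples. It was the 1 flag in 80 groups of 4 examined (40 members in 2 groups), and chance flags about 5% of groups.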

How the results depend on the processing

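Under all alternatives run, 0 members passed the adjusted test. The number with negative values was 34 in the fit reported, 20 of the 24 tested with a filter of 5 FPKM (fewer genes tested), 25 to 38 with 1 library left out and 15 without ICI replicate 2 and Scop replicate 3. The median was -0.26 to -0.05 with 1 library left out and 0.033 without both. Members with an unadjusted p under 0.05 numbered 6, but 3 after quantile normalisation. With 1 library left out they numbered 2 (without ICI replicate 2) to 11 (without ICI replicate 3), with 3 without Scop replicate 2 or Scop replicate 3. The share of all genes under this threshold was 12.0% in the fit reported. It was not worked out for the alternatives, so their counts cannot be set against all genes. Among the 15 members given under the rule, leaving out ICI replicate 2 and Scop replicate 3 turned Plk1 (0.0062), Ube2c (0.14), Spc24 (0.062), Kif20a (0.18), Prc1 (0.14) and Cdca3 (0.11) positive. Other members turned positive too, among them Cdc20 (0.22), Cenpa (0.20) and Kif2c (0.27). In that setting Ccnb1, Aurka and Kif2c were higher in ICI and Top2a lower at an unadjusted p under 0.05 by limma. Both libraries are extremes of their groups, so a shift upward is built into this setting. With 1 library left out, Plk1 ran from -0.44 to -0.11, Ube2c from -0.42 to -0.02, Spc24 from -0.27 to -0.03, Kif20a from -0.24 to 0.10, Prc1 from -0.25 to 0.01 and Cdca3 from -0.23 to 0.06, with positive values without Scop replicate 3 for the last 3 and without ICI replicate 2 for Kif20a and Prc1. The 9 other members given under the rule above (smallest p, highest mean or an outlying library) kept their direction in all settings run. Ccnb1 and Mki67, picked outside that rule, had 0.33 (SE 0.14) and -0.11 (SE 0.12) without ICI replicate 2 and Scop replicate 3. Their directions were not followed through the other alternatives.

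The replicate numbers were not taken as pairs, since deviations of same-numbered samples correlated at 0.29, -0.01, 0.14 and 0.08 for replicates 1 to 4 and not every sample correlated best with its own number. With the replicate number as a block, the median was -0.18, 34 members were negative, 9 had an unadjusted p under 0.05 and 0 passed. Low members such as Cenpe, with 91 to 177 fragments a library, carry the largest counting error.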
